A study of Rattus norvegicus with 4 samples.

Results

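The genes that make microRNAs and carry out their silencing were followed in oligodendrocyte precursor cells (OPCs) cultured from rat cortex. These cells divide, and on leaving the cycle become the oligodendrocytes that wrap axons in myelin. The members are 9 named genes: Drosha, Dgcr8, Xpo5, Dicer1, Tarbp2, Ago1, Ago2, Tnrc6a and Tnrc6b. They were found on the array by pairing each probe's RefSeq accession with a current symbol, which gave 8 probes for 6 of the genes, among 23155 features tested in all. No probe was paired in this way with Dicer1, Ago2 or Tnrc6a, and these 3 genes are not analysed here. The pairing named 46.3% of all probes, so this does not show that the array lacks them. In the miR-125a-3p group (2 samples), OPCs from the cortex of rats at postnatal day 2, expanded for 3 days with bFGF and PDGF, received miR-125a-3p mimic RNA at 50 nM by lipid transfection. The miR-neg group (2 samples) was handled the same way and received a negative control RNA. RNA was taken at 48 h and hybridised to single-colour arrays, 1 per sample. Transfection and the growth factors were thus common to both groups. The labels do not say whether the samples of a group came from separate animals or cultures. The p-values below thus measure only the spread between these samples, and limma draws each gene's spread towards that of all features. An SE given below is therefore not the spread of that gene's own samples alone.

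MicroRNAs are cut from a long nuclear transcript in stages. Drosha and its partner Dgcr8 release a hairpin in the nucleus, exportin 5 carries it to the cytoplasm, and Dicer with Tarbp2 cuts it to a short duplex. One strand is loaded into an Argonaute protein, which pairs with target mRNAs mainly through the seed near the 5′ end of the microRNA, and GW182 proteins of the Tnrc6 family link Argonaute to the enzymes that shorten the poly(A) tail and remove the cap. In mice, loss of Dicer from the oligodendrocyte lineage impairs the switch from precursor to myelinating cell. A transfected mimic is a short duplex that enters at the Argonaute step and does not need Drosha or Dicer cleavage.

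The 2 mature strands of the rat Mir125a hairpin are shown because the 3p strand is the sequence that the mimic is named after. They are RefSeq entries on the plus strand of GRCr8 chromosome 1, with the seed (bases 2 to 8) in capitals. The sequence of the mimic itself is not given in the sources used here.
rno-miR-125a-3p: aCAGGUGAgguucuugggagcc
rno-miR-125a-5p: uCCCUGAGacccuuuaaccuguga
The 3p strand lies at chr1:67350727-67350748 and the 5p strand at chr1:67350689-67350712. Their seeds differ, and of 724 mature rat microRNAs in the table used, 1 has the 3p seed, rno-miR-125a-3p itself. The array measured mRNAs and other long transcripts, so the level of the microRNA itself was not measured. Of its named probes, 0 were for the microRNA precursor.

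The 4 arrays were alike in overall signal, with a 75th percentile of 702 to 717 on the miR-125a-3p arrays and 679 to 745 on the miR-neg arrays, and 0 spots were saturated. All 11 tested OPC identity genes were well above background on the 4 arrays, where being tested already required 2. The tested astrocyte, neuronal and mature oligodendrocyte markers were too, so this does not tell OPCs from other cells. Of the 11 OPC genes, 0 passed the test between groups in limma, with 2 at an unadjusted p under 0.05. Their median change was 0.08 on the log2 scale. Other marker lists lay further from 0, where 0.687% of all features passed in limma and 19.5% had an unadjusted p under 0.05. Of 12 astrocyte markers, 1 was called higher and 7 had an unadjusted p under 0.05, all higher, with a median change of 0.49. Of 10 microglial markers, 1 was called higher and 6 had an unadjusted p under 0.05, all higher, with a median of 1.31. Cx3cr1, P2ry12, Cd68 and Itgam did not share that rise, at -0.06, -0.0008, -0.28 and 0.09. Of 7 fibroblast, pericyte and endothelial markers, 1 was called higher and 5 had an unadjusted p under 0.05, all higher, with a median of 0.92. Of 9 mature oligodendrocyte markers, 1 was called lower and 7 had an unadjusted p under 0.05, all lower, with a median of -0.69. Of 10 neuronal markers, 0 passed in limma and 3 had an unadjusted p under 0.05, all higher, with a median of 0.09. The microglial genes Csf1r and Ptprc, the vascular genes Pecam1, Cldn5 and Rgs5 and the fibroblast genes Dcn and Lum were too dim to be tested. The summed signal of a list weighs its brightest probes most, so it can move less than the median. In multiples of the 75th percentile, it was 220 to 222 after the mimic and 190 to 203 after the control RNA for the astrocyte markers, 4.47 to 5.02 and 3.95 to 4.53 for the microglial markers, 1.05 to 1.21 and 0.629 to 0.633 for the fibroblast, pericyte and endothelial markers, and 16.9 to 16.9 and 14.3 to 15.4 for the neuronal markers. For the mature oligodendrocyte markers it was 494 to 516 after the mimic and 763 to 786 after the control RNA. In bulk RNA such as this, fewer cells of a type and less RNA per cell cannot be told apart, and the part of cell makeup in the values below was not tested. All 4 arrays shared 1 slide and 1 scan, and the groups occupied different columns of that slide, so slide column and group cannot be told apart.

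The comparison asks whether adding a mimic of 1 microRNA went with a different mRNA level of the machinery that microRNAs use. It gave no called change: of the 6 genes tested, 0 passed an adjusted p of 0.05 in limma, where 0.687% of all features did. The smallest adjusted p among them was 0.177. With each of the 8 probes tested on its own, 0 passed, against 0.617% of all kept probes. At an unadjusted p under 0.05 there were 2 of 6, against 19.5% of all features: Tarbp2 was lower, as were 8.97% of features, and Tnrc6b higher, as were 10.5%. The groups did not overlap for 4 of 6, against 52.9% of all features, with 3 lower (24.1% of features) and 1 higher (28.7%). With 6 genes, nothing particular to the machinery is read from these counts. The median change of the 6 genes was -0.06 on the log2 scale, against 0.01 over all features, with 2 above 0 and 4 below.

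Values below are log2 signals relative to the array's 75th percentile, so 0 is that percentile and a change of 1 is a doubling. Every one of the 8 probes was well above background on all 4 arrays. Probes differ in how brightly they bind, so a level is compared between samples of 1 probe and never between genes.

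**Figure D1:**
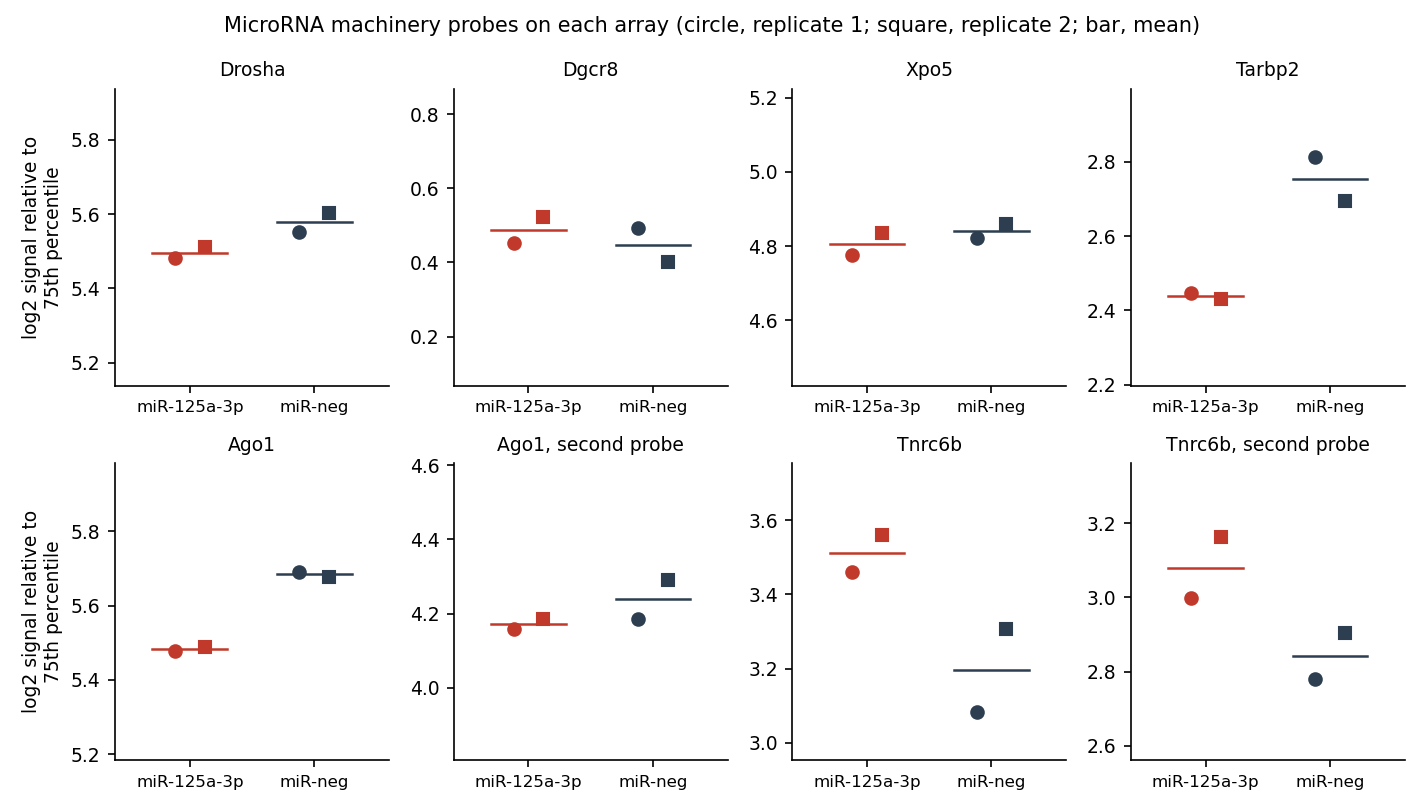
Log2 signal relative to the 75th percentile (y axis) of each of the 8 probes on the miR-125a-3p arrays and the miR-neg arrays (x axis). Circles are replicate 1, squares replicate 2 and bars the group means, and every panel spans the same height. The groups stand apart without overlap for Drosha, Tarbp2, the main Ago1 probe and both Tnrc6b probes.

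In the nucleus, Drosha, the RNase III enzyme of the first cut, was at 5.48 and 5.51 in the miR-125a-3p samples and at 5.55 and 5.60 in the miR-neg samples. Both mimic samples thus lay just below both controls, by a change of -0.08 (SE 0.08, 95% confidence interval -0.29 to 0.13, limma adjusted p = 0.611). A change that size was exceeded by 69.6% of all features. Dgcr8, the RNA-binding partner that anchors Drosha on the hairpin, was at 0.45 and 0.52 after the mimic and at 0.49 and 0.40 after the control RNA. Its groups overlapped, with a change of 0.04 (SE 0.08, interval -0.19 to 0.27, limma adjusted p = 0.83). For neither the enzyme nor its partner was a difference detectable with these samples.

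Xpo5, the exportin that carries hairpins out of the nucleus, was at 4.78 and 4.83 in the miR-125a-3p samples and at 4.82 and 4.86 in the miR-neg samples. The groups overlapped, and the change was -0.04 (SE 0.08, interval -0.25 to 0.18, limma adjusted p = 0.832), the smallest of the 6. It was -0.0070 without miR-125a-3p replicate 1, -0.066 without miR-125a-3p replicate 2, -0.055 without miR-neg replicate 1 and -0.018 without miR-neg replicate 2.

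Tarbp2, the double-stranded RNA-binding partner of Dicer that helps hand the duplex to Argonaute, was at 2.45 and 2.43 after the mimic and at 2.81 and 2.70 after the control RNA. Both mimic samples lay below both controls, and they lay closer to each other (SD 0.01) than the controls did (SD 0.08, n = 2 each). The change of -0.32 (SE 0.08, interval -0.55 to -0.08) corresponds to a 0.803-fold level. This was the largest decrease and the smallest p among the members (unadjusted p = 0.0193), and it did not pass over all features (limma adjusted p = 0.177). Of all features, 21.2% had a larger absolute change and 10.9% had a smaller p. When the variance was allowed to follow the mean signal, the same change passed (limma adjusted p = 0.027), as did 2048 of 23155 features. That was the 1 of 16 alternatives in which Tarbp2 passed. Its range over the alternatives was -0.38 to -0.26.

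In the silencing complex, Ago1, one of the Argonaute proteins that hold the guide strand, had 2 probes for the same transcript. The brighter one, which stood for the gene, was at 5.48 and 5.49 in the miR-125a-3p samples and at 5.69 and 5.68 in the miR-neg samples. The samples of each group nearly coincided and the groups did not overlap, with a change of -0.20 (SE 0.07, interval -0.40 to 0.00, unadjusted p = 0.0514, limma adjusted p = 0.26). The second probe was at 4.16 and 4.19 after the mimic and at 4.19 and 4.29 after the control RNA. There the groups overlapped, and the change was -0.07 (interval -0.30 to 0.16, limma adjusted p = 0.719 with every kept probe tested). With the 2 probes averaged, the Ago1 change was -0.13.

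Tnrc6b, a GW182 protein that recruits deadenylases to Argonaute, had the largest increase of the 6 members tested. Its main probe was at 3.46 and 3.56 after the mimic and at 3.08 and 3.31 after the control RNA. The change of 0.32 (SE 0.11, interval 0.01 to 0.63) corresponds to a 1.24-fold level, with an unadjusted p of 0.0476 and an adjusted p of 0.252 in limma. The second probe was at 3.00 and 3.16 after the mimic and at 2.78 and 2.90 after the control RNA, a change of 0.24 (interval -0.05 to 0.52, limma adjusted p = 0.326 with every kept probe tested). Both mimic samples lay above both controls at each probe, and the probes, which share a transcript, are not independent evidence. The miR-neg samples spread more here (SD 0.16 at the main probe) than in any other tested member, and without miR-neg replicate 1 the change was 0.20, against 0.43 without miR-neg replicate 2. Over the 16 alternatives the change ranged from 0.20 to 0.43. With normexp background correction it was 0.34 and just passed (limma adjusted p = 0.0494), as did 1601 of 23155 features.

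**Figure D2:**
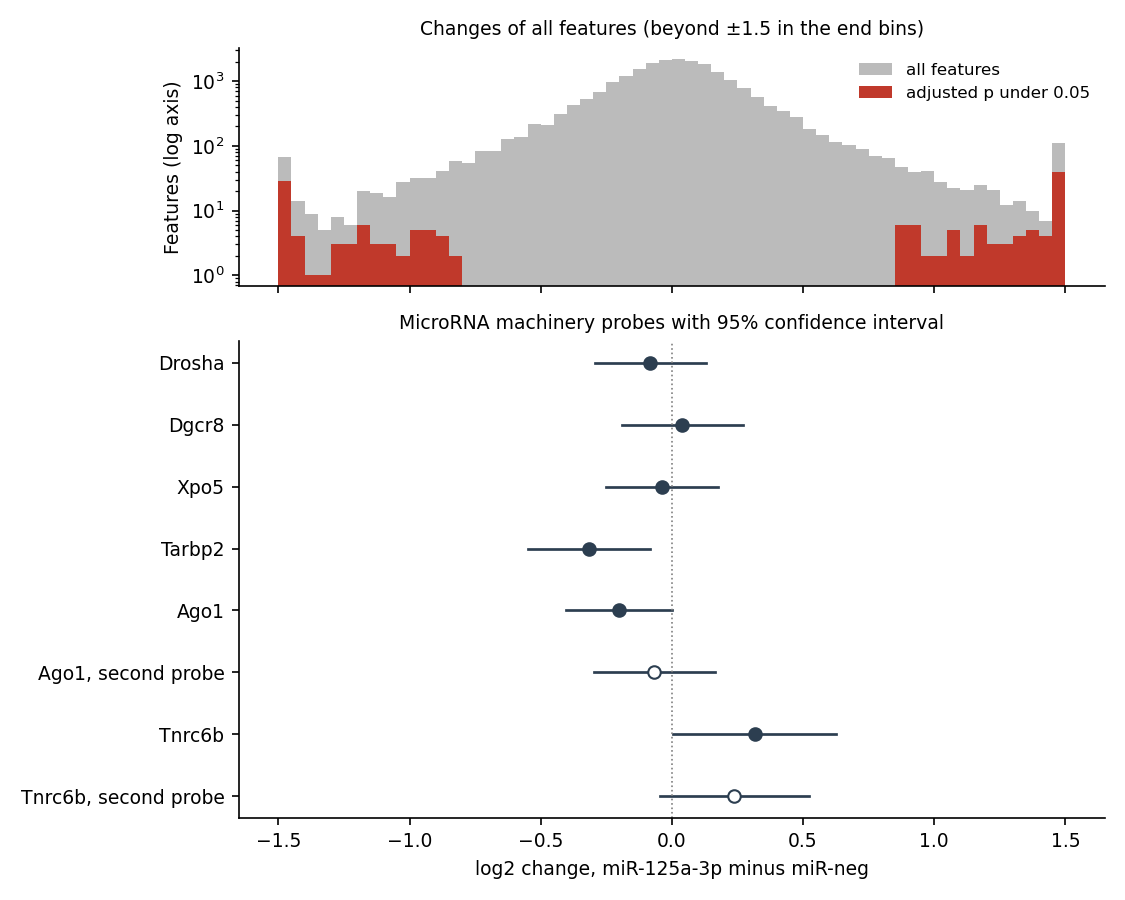
Log2 change, miR-125a-3p minus miR-neg (x axis), as a histogram of all 23155 features on a log count axis with the 159 past the threshold in red (top), and for the 8 member probes with 95% confidence intervals (bottom). Filled points are from the fit with 1 probe per gene, open points from the fit with every kept probe, and the intervals of the 6 genes end at -0.55 and 0.63.

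The intervals bound what these arrays leave possible. Across the 6 genes the outermost ends were -0.55 (Tarbp2) and 0.63 (Tnrc6b), or 0.683-fold and 1.54-fold, and the half-widths ran from 0.20 to 0.31. The smallest absolute change among the 159 features that passed was 0.84, which lies outside each of these intervals. These are intervals for 1 gene each, not adjusted for the number of genes. Smaller changes lie within them, and as given above a variance trend called Tarbp2 and normexp called Tnrc6b.

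Settings that alter filters, variance priors or blocks leave the change at a given probe as it was, so their agreement in direction was fixed in advance. Over all 16 alternative settings, 95 of 96 member values kept their direction. The exception was Dgcr8, which was at -0.0067 without miR-neg replicate 2. Neither Drosha, Dgcr8, Xpo5 nor Ago1 passed in any of them, and their smallest adjusted p-values in limma were 0.5, 0.703, 0.794 and 0.0857.

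**Figure D3:**
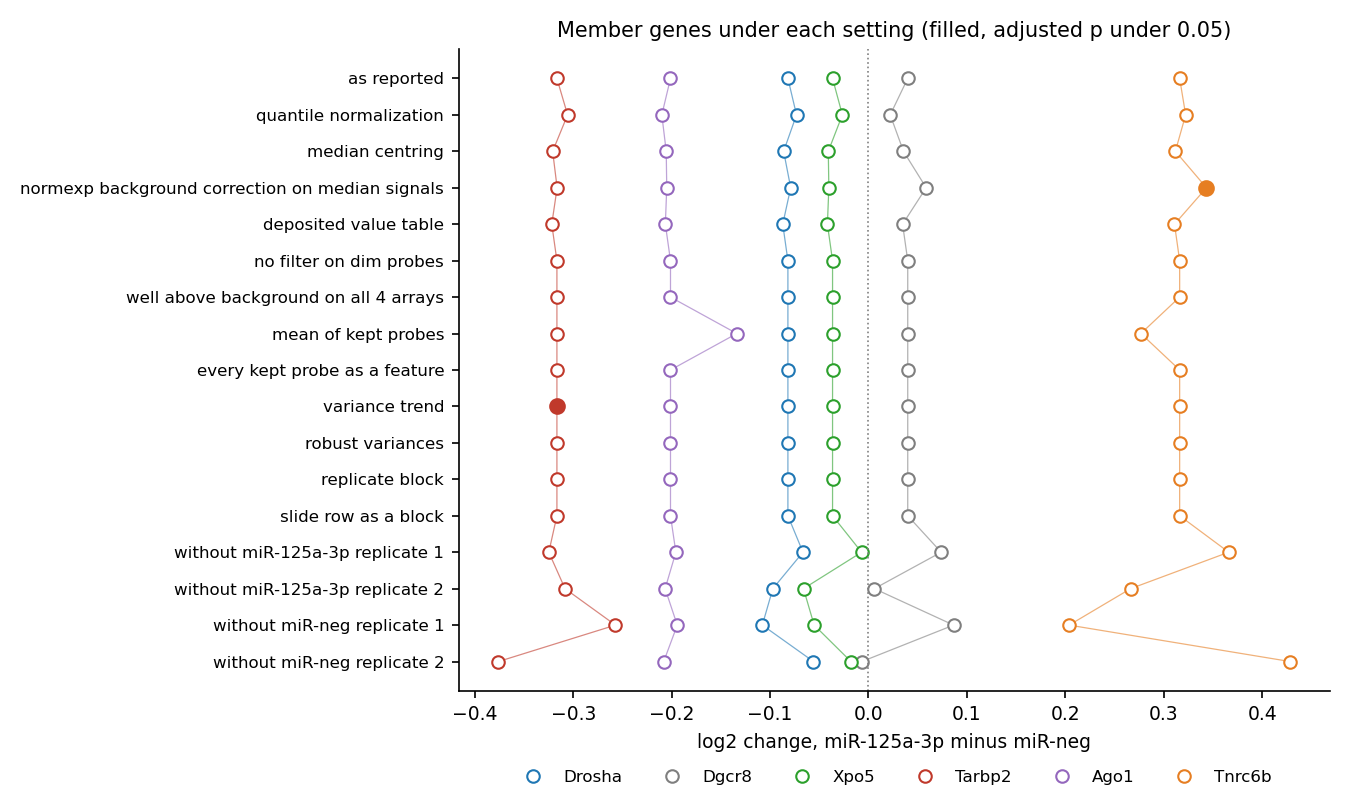
Log2 change, miR-125a-3p minus miR-neg (x axis), of the 6 member genes as reported and under 16 alternative settings (y axis). Filled points passed an adjusted p of 0.05, which happened for Tarbp2 with a variance trend and for Tnrc6b with normexp.

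The wider pathway was read from 5 lists of 88 genes, 73 of which were tested. In limma, 0 of 73 passed in either direction, against 0.38% of all features higher and 0.307% lower. At an unadjusted p under 0.05 there were 7 of 73 (3 higher, 4 lower), against 19.5% of all features (10.5% higher, 8.97% lower), which is also the background for the counts of single lists below. The groups did not overlap for 36 of the 73, against 52.9% of all features. The median was -0.03 with 30 above 0 and 43 below, where 52.5% of all features lay above 0. With a variance trend 4 of the 73 passed, against 2048 of all 23155 features, and with normexp 3, against 1601. When probes dim on any of the 4 arrays were dropped, 1 of 72 passed, against 613 of 21182 features. These counts are the background for the passes of single genes under those settings below.

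Among 10 microprocessor and nuclear cofactor genes, 0 passed and 0 had an unadjusted p under 0.05, with a median of 0.00 (-0.01 to 0.05 with 1 array left out) and changes from -0.09 to 0.43. Safb, a nuclear RNA-binding protein that assists Drosha on clustered hairpins, was at -0.30 and 0.17 after the mimic and at -0.52 and -0.46 after the control RNA. Its change of 0.43 had a limma adjusted p of 0.308, and the mimic samples were far apart from each other. The paralog Safb2, chosen after its value was seen, changed by -0.06 (limma adjusted p = 0.71). Ddx5, an RNA helicase of the Drosha complex, changed by -0.09 (limma adjusted p = 0.602).

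Among 5 export and Dicer partner genes, 0 passed and 0 had an unadjusted p under 0.05, with a median of 0.03 (0.0049 to 0.11 with 1 array left out, highest without miR-neg replicate 1). Prkra, which encodes PACT, the other double-stranded RNA-binding partner of Dicer, was at 0.32 and 0.51 after the mimic and at 0.28 and 0.13 after the control RNA. Its groups did not overlap, and its change of 0.21 (SE 0.11, limma adjusted p = 0.398) had the opposite sign to that of Tarbp2. Xpo1, a general nuclear export receptor, changed by 0.09 (limma adjusted p = 0.561).

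Of 18 tested genes for Argonaute paralogs, loading chaperones and associated proteins, 0 passed and 5 had an unadjusted p under 0.05, 3 of them higher and 2 lower, with a median of 0.02 (-0.04 to 0.07 with 1 array left out, below 0 without miR-neg replicate 1 and without miR-125a-3p replicate 2). Ago3, the Argonaute paralog that was measured, was at -4.10 and -3.77 in the miR-125a-3p samples and at -3.44 and -3.77 in the miR-neg samples. The groups overlapped, and the change of -0.33 (SE 0.18) had a limma adjusted p of 0.398. Ago4 had no named probe and is not analysed here.

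Tsn, or translin, which with its partner Tsnax forms a nuclease that helps clear the passenger strand, had the smallest p of all 73 genes. It was at 2.12 and 2.14 after the mimic and at 1.49 and 1.46 after the control RNA, so each group was tight and the groups were far apart. The change of 0.65 (SE 0.07) had a limma adjusted p of 0.0615. It passed with a variance trend (0.000709), with normexp (0.00154) and when probes dim on any of the 4 arrays were dropped (0.032). It passed an adjusted p of 0.05 in no other alternative setting. The smallest limma adjusted p of any list gene was 0.0664 under quantile normalization. It was 0.134 with the replicate number as a block and 0.277 without a filter on dim probes. Tsnax itself, chosen after its value was seen, changed by 0.05 (limma adjusted p = 0.793).

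Hsp90ab1, an HSP90 chaperone that holds Argonaute open for loading, was at 6.13 and 5.92 after the mimic and at 6.54 and 6.45 after the control RNA. Both mimic samples were lower, by a change of -0.47 (SE 0.11, limma adjusted p = 0.145), and its second probe changed by -0.24. It passed with a variance trend (limma adjusted p = 0.00858) and with normexp (0.0194). The paralog Hsp90aa1, chosen after its value was seen, overlapped between groups with a change of 0.12 (limma adjusted p = 0.643). The HSP90 cochaperone genes Fkbp4 and Ahsa1, chosen likewise, were at 0.28 and 0.23, and neither passed (limma adjusted p = 0.19 and 0.255). The cochaperone genes Ptges3, Fkbp5 and Cdc37 of the same list did not share that rise, at 0.06, 0.05 and 0.04. Fkbp4 passed with a variance trend (limma adjusted p = 0.0379).

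Of 29 tested deadenylation, decapping and decay genes, through which GW182 proteins act, 0 passed and 2 had an unadjusted p under 0.05, both lower. The median was -0.05 (-0.10 to 0.00 with 1 array left out, highest without miR-neg replicate 2), with 10 above 0 and 19 below. Patl1, a scaffold that joins the decapping enzyme to the deadenylated mRNA, was at 0.48 and 0.59 after the mimic and at 1.13 and 1.04 after the control RNA. Its groups were well separated, and the change of -0.55 (SE 0.09) had a limma adjusted p of 0.0914, and passed with a variance trend (0.00392) and with normexp (0.0077). Ddx6, a helicase that bridges the deadenylase complex and decapping, was at 4.44 and 4.37 after the mimic and at 4.65 and 4.63 after the control RNA. The change was -0.23 (SE 0.08, limma adjusted p = 0.229), and its other kept probes changed by -0.14, -0.10 and -0.22. The lowest value of the list, chosen after it was seen, was Ajuba at -0.98, which rests on miR-neg replicate 1 alone: the samples were at -4.45 and -4.25 after the mimic and at -1.52 and -5.22 after the control RNA. Tnrc6c, the GW182 paralog in the list, had no named probe and is not analysed here.

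Of 11 tested tailing and turnover genes, 0 passed and 0 had an unadjusted p under 0.05, with a median of -0.08 (-0.09 to -0.01 with 1 array left out, nearest 0 without miR-125a-3p replicate 2) and changes from -0.21 to 0.15. Zswim8, the substrate receptor of a ubiquitin ligase that removes Argonaute when a target directs decay of its microRNA, was at -0.50 and -0.31 after the mimic and at -0.19 and -0.20 after the control RNA. The mimic samples lay below the controls, by a change of -0.21 (SE 0.10, limma adjusted p = 0.347). Tut7, which adds uridines to microRNA precursors, changed by -0.13 (limma adjusted p = 0.415).

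**Figure D4:**
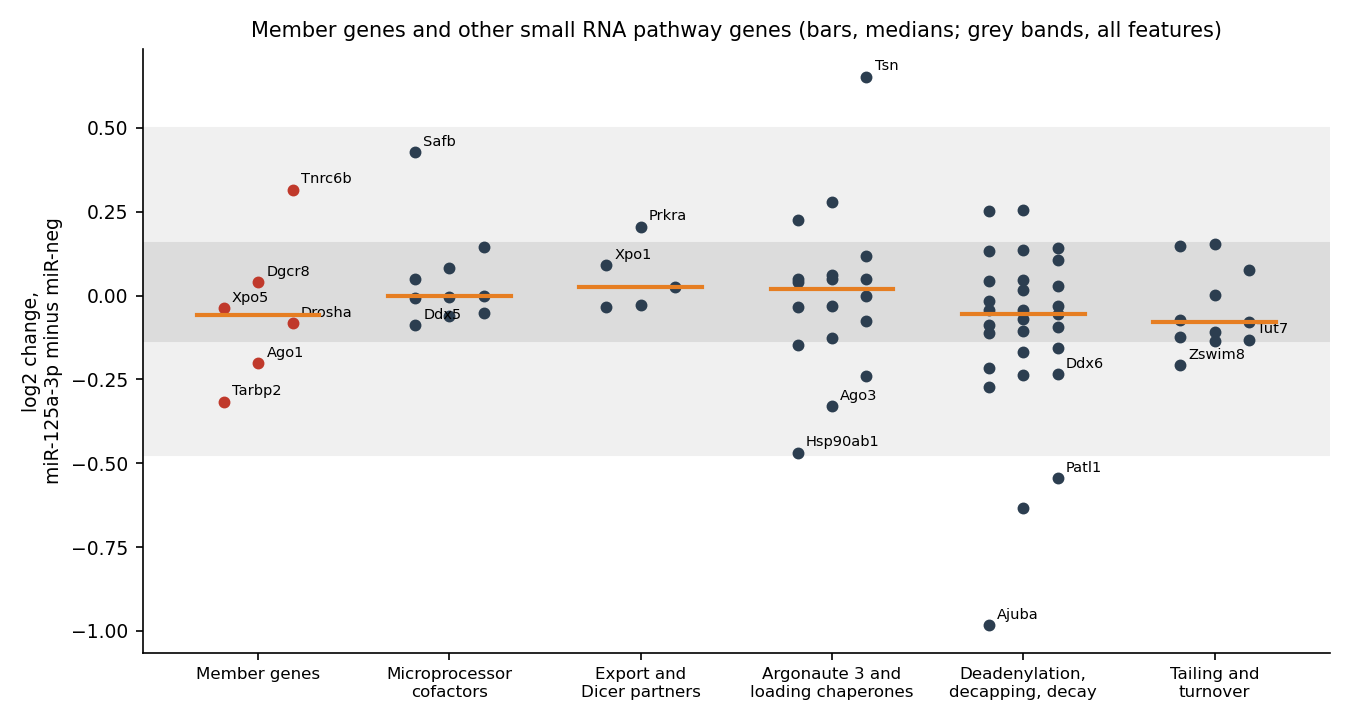
Log2 change, miR-125a-3p minus miR-neg (y axis), of the 6 member genes in red and of the 73 tested genes of the 5 lists (x axis), 1 point per gene. Orange bars are medians, and the grey bands hold the middle of all features, from -0.14 to 0.16 (percentiles 25 to 75, darker) and from -0.48 to 0.50 (percentiles 5 to 95, lighter).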

How the data were processed

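The deposited scanner files hold intensity values made with Agilent Feature Extraction 10.7.3.1, per the submitters' processing notes. Per the file headers, these were background-subtracted and detrended on each array, and other columns flag single spots. The deposited value table holds log2 values, which equalled the scanner values in log2, less an offset for each array, within 0.01 for 100% of probes and had the 75th percentile at 0. Medians of its columns were -4.08 and -4.14 for miR-125a-3p and -4.07 and -4.15 for miR-neg. Direction and scale were thus settled.

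Control spots and outlier spots were left out, replicate spots were averaged as log2 values, and arrays were scaled to a common 75th percentile. A filter on dim probes asked for a flag well above background in 2 or more arrays and kept 27273 of 45598, and 65 of the 45598 lacked an unflagged spot on some array and were left out. Accessions were named through the RefSeq table of GRCr8 (21109 probes, 46.3%). The array grid names another assembly, so gene coordinates are not given. The probe with the highest mean stood for its gene. The comparison of miR-125a-3p with miR-neg used limma 3.58.1 under R 4.3.3 (two-sided, Benjamini-Hochberg over 23155 features, threshold 0.05), since an exact permutation test of 2 against 2 cannot give a p below 0.333. The fit was also run on simulated data drawn from its own model, which cannot show whether that model holds for these arrays. The number of arrays limits the precision.

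The members and lists were chosen with earlier results of these data known. Named pathway genes were, per list, those past the threshold or else the 2 with the smallest p, plus paralogs of members. Tsnax, Hsp90aa1, the HSP90 cochaperone genes, Safb2 and Ajuba were outside this rule and were named after their values were seen. Alternatives were other normalizations, filters, probe rules, variance priors, blocks and left-out arrays.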

Additional observations from a re-analysis of the deposited data

How the results depend on the processing

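The count of 159 features past the threshold (88 higher, 71 lower) became 83 under quantile normalization, 613 when probes dim on any of the 4 arrays were dropped, 2048 with a variance trend, 1601 with normexp on median signals, which was chosen after seeing the data because the files hold no mean signals, and 984 at a threshold of 0.1. It was 0 without a filter on dim probes (3956 at an unadjusted p under 0.05 in limma), 0 with the replicate number as a block, which equals the slide row as a block (0, with 3968), and 0 to 0 with 1 array left out (2748 to 4116), where a lone array is assumed to vary like the other group. Same-numbered arrays had deviations correlated at 0.0505, which with 2 arrays per group cannot decide whether the numbers pair them. The count of member genes past the threshold, 0 of 6, became 1 with a variance trend (Tarbp2) and 1 with normexp (Tnrc6b), and stayed at 0 in the other settings, the replicate block included. For the 73 pathway genes, 0 became 3 with normexp, 4 with a variance trend, 1 when probes dim on any array were dropped and 2 at a threshold of 0.1. With 1 array left out, Dgcr8 ranged from -0.0067 to 0.0865. For each of these, the cause was not tested.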
